A study of Homo sapiens with 10 samples.

Results

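The proteasome genes examined here are the 50 protein-coding genes of the human genome whose symbols begin with PSMA, PSMB, PSMC, PSMD, PSME, PSMF or PSMG, out of 20033 protein-coding genes on the nuclear chromosomes. They were taken by symbol alone, and a gene was counted as bound when the summit of a MYC peak lay within 1 kb of either end of its span. By their known roles 19 encode the core particle, 17 the regulatory cap and 7 assembly chaperones. A further 4 encode activators and 1 an inhibitor. The remaining 2, PSMC3IP, a meiotic recombination factor, and PSME3IP1, a partner of PSME3, carry the prefix without being subunits or assembly factors.

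The proteasome degrades proteins marked with ubiquitin. Its barrel-shaped core is built of alpha rings that gate the entrance and beta rings that hold the proteolytic sites, and its cap recognises, unfolds and feeds in the substrate. Dedicated chaperones build the core and the base of the cap, and the activators encoded by PSME genes open the core without the cap. MYC is a transcription factor that pairs with MAX and binds E-box sequences, and genes of cell growth and protein synthesis are among its known targets.

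MYC binding was measured by chromatin immunoprecipitation (IP) with mouse NIH3T3 cells mixed in at 10% as an exogenous reference. The host was U2OS, a human osteosarcoma line, with its own MYC gene knocked out in all groups and a FLAG-tagged, doxycycline-inducible MYC put in its place. IPs with an antibody to FLAG were made from cells given 1 µg/mL doxycycline for 24 h to induce the mutants MYC-3A or MYC-7A (2 libraries each) or wild-type MYC-WT (2 libraries). The labels also list MYC-WT IPs without doxycycline (2 libraries) and inputs with and without it (1 each), which had no peak list used here. The labels do not say which residues the mutants change, and they do not describe the knockout cells as 1 clone or several.

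Each induced protein has 1 deposited peak list, with 845 peaks for 3A, 64 for 7A and 4749 for WT. How its 2 libraries were combined is not given, so there is no spread between replicates, no test of one protein against another, and no level set against uninduced cells. Fold enrichments, the ratio of a peak's signal to a background that the sources used here do not describe, and −log10 q-values are the authors' own and are read within 1 list. Read totals were not used here, and the lists carry no expression values against which the labelled cell line could be checked. Intervals below are 95% Wilson intervals, which treat genes as separate draws and cover counting error only.

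The sequences shown first are the 250 bases upstream of the annotated start at 6 proteasome genes, read 5′ to 3′ on the gene's own strand from RefSeq (GRCh38.p14). PSME3 and PSMD9 are shown because their WT summits lay on or beside a canonical E-box (CACGTG), and PSMA5 for a non-canonical E-box (CACGCG) at the start. PSMD3 carries the core of an antioxidant response element (TGACNNNGC), the motif of the NFE2L1 and NFE2L2 factors that are known to drive proteasome genes, and PSMB2 is a bound gene without any of these motifs. PSMB3 is the contrast, a gene with a canonical E-box and no MYC summit. Capitals mark these 3 motifs on either strand, and in PSMD9 the first of the capital runs is the response element read on the opposite strand. The windows lie at chr17:42833147-42833396 (plus strand), chr12:121888540-121888789 (plus), chr1:109426449-109426698 (minus), chr17:39980557-39980806 (plus), chr1:35641527-35641776 (minus) and chr17:38752491-38752740 (plus).
PSME3: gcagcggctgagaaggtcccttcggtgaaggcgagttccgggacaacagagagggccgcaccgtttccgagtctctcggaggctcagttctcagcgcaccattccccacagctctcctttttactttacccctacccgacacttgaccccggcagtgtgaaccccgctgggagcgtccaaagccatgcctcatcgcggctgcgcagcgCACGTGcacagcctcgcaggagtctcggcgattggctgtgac
PSMD9: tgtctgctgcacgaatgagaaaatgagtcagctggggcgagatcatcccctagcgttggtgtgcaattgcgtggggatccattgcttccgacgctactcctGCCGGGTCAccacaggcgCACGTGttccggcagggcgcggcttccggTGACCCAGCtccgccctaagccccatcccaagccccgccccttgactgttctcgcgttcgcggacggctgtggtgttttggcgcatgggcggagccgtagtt
PSMA5: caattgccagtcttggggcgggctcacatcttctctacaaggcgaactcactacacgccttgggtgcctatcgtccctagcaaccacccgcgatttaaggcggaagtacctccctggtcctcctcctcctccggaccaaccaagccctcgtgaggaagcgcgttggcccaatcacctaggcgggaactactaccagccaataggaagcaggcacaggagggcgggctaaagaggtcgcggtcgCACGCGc
PSMD3: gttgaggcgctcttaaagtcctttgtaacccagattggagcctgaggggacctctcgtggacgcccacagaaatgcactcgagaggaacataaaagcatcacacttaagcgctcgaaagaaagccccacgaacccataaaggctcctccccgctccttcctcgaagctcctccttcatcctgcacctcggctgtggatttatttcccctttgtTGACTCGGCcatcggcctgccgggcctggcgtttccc
PSMB2: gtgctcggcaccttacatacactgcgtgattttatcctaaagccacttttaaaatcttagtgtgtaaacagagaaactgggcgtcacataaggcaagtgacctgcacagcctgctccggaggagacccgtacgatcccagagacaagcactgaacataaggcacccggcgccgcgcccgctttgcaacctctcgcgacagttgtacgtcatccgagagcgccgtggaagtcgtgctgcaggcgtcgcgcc
PSMB3: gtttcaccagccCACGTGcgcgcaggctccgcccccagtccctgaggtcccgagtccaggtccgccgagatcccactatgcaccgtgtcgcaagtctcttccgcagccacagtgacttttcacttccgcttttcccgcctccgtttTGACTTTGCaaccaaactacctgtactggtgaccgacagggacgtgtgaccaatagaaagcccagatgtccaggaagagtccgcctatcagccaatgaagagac

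The first question was how many proteasome genes each MYC protein bound. 3A had a summit at 1 of the 50 genes (2.0%, interval 0.354 to 10.5%), against 3.50% of all protein-coding genes. 7A had a summit at 0 of the 50 (interval up to 7.13%), against 0.125% of all protein-coding genes, and its nearest summit to any of them was 154785 bp away. WT had a summit at 13 of the 50 (26.0%, 15.9 to 39.6%), against 16.7% of all protein-coding genes. In each list the share of all genes lay inside the interval for the proteasome genes, so with 50 genes none of the 3 counts can be told from its background. For WT this depended on which genes were counted. Without the 2 prefix-only genes and 5 tissue-restricted or inducible core genes, WT bound 13 of 43 (30.2%, 18.6 to 45.1%), an interval above 16.7%. None of the genes left out was bound by WT, so leaving them out could only raise the share. The 16.7% was not cut in the same way and keeps restricted and inducible genes. That smaller set was added after seeing the data, so its interval does not show a departure from background, and the difference was not tested.

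The share of all genes counts silent genes and genes without CpG-rich starts. Of the 50 genes, 44 had at least 1 start window in the RefSeq promoter table, and in 38 of these a window was CpG-rich (GC of at least 50% and an observed-to-expected CpG ratio of at least 0.6). WT bound 11 of these 38 (28.9%, 17.0 to 44.8%), against 24.3% of all genes with a CpG-rich start window. By this cutoff the proteasome genes stood closer to the background than against all genes. The cutoff is not a match on base composition, and the 38 still included some restricted, inducible or prefix-only genes. Taking the first listed start window of each gene, the median CpG ratio was 0.884 in the 11 bound genes that had one. It was 0.769 in the 33 unbound genes and 0.763 over all genes. No value was taken for all WT-bound genes, so the higher ratio cannot be called particular to bound proteasome genes.

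Binding by WT was spread over the classes. It reached 5 of 19 core genes (26.3%, 11.8 to 48.8%), 5 of 17 cap genes (29.4%, 13.3 to 53.1%) and 2 of 7 assembly genes (28.6%, 8.22 to 64.1%). Of the 5 activator and inhibitor genes it reached PSME3 alone (interval 3.62 to 62.4%), and neither of the prefix-only genes was bound. These shares differed by far less than the width of their intervals. 3A reached 0 core, 0 cap and 0 assembly genes, with interval tops of 16.8%, 18.4% and 35.4%, and its single gene was again PSME3.

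**Figure D1:**
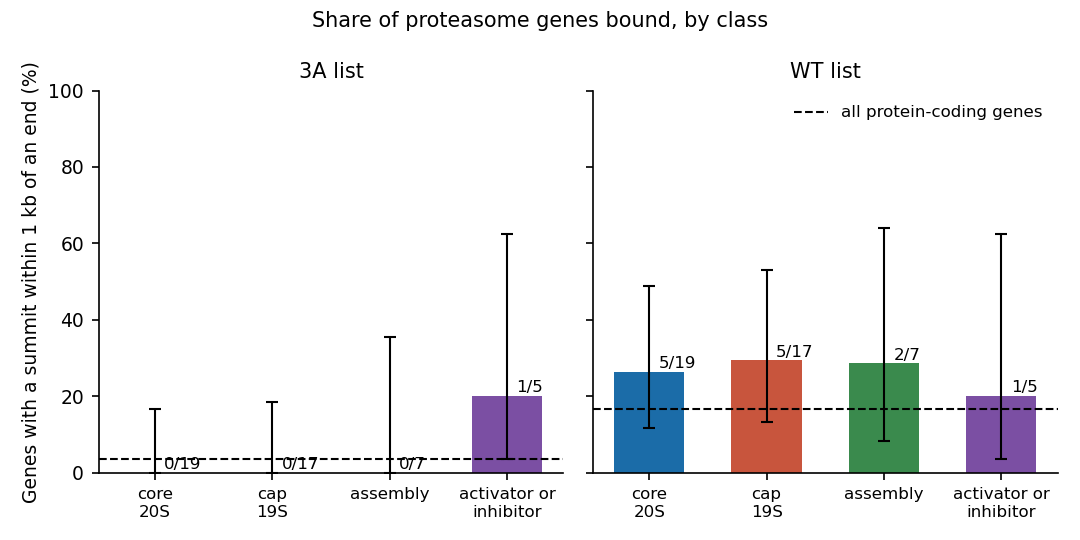
Share of proteasome genes with a MYC summit within 1 kb of a gene end (y axis, %), by class (x axis), in the 3A list (left) and the WT list (right). Error bars are 95% Wilson intervals, the fractions give bound genes over all genes of the class, and the dashed line is the share of all protein-coding genes (3.50% for 3A and 16.7% for WT). The WT shares of core, cap and assembly genes lie between 26.3% and 29.4%.

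PSME3 carried the strongest MYC peak of all 50 genes and was the only one bound by a mutant under the 1 kb rule. It encodes the nuclear activator of the core particle, which promotes degradation of some proteins without ubiquitin, and its span is chr17:42833397-42843760. In the 3A list its peak at chr17:42833049-42833516 had a fold of 4.94 and a −log10 q of 31.2, which placed it 65th of 845 by fold. In the WT list the peak at chr17:42832829-42834036 had a fold of 13.6 and a −log10 q of 174, which placed it 94th of 4749. The 3A summit lay 102 bp upstream of the start and the WT summit 67 bp upstream. No other protein-coding gene ended within 1 kb of either summit. The CACGTG in the PSME3 sequence above runs from base −42 to base −37 relative to the start, and its centre was 62.5 bp from the 3A summit and 27.5 bp from the WT summit.

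The other activator genes and the inhibitor gene had no summit nearby. PSME1 and PSME2, the interferon-inducible activator subunits, lay 21190 and 28361 bp from the nearest WT summit, which was at NRL. PSME4, whose product is a large nuclear activator, lay 586939 bp from a WT summit. PSMF1, which encodes an inhibitor of the core, lay 110758 bp away. PSME3 therefore stood alone among the 5.

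WT bound 5 cap genes, with folds of 3.02 to 6.58 and a median of 3.86. PSMC4, an ATPase of the ring that unfolds substrates, had a WT fold of 6.58 (−log10 q 25.7) at chr19:39970165-39971116, its summit 273 bp upstream of the start. PSMC5, another ATPase of the same ring, had a WT fold of 3.05 (−log10 q 10.7) at chr17:63826620-63827777, with the summit 394 bp upstream. The end of FTSJ3 was 626 bp from that summit. These were the only bound genes among the 9 of the base, where PSMC1, PSMC2, PSMC3 and PSMC6 and the genes of the large scaffold subunits, PSMD1 and PSMD2, and of the ubiquitin receptor PSMD4 had none.

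In the lid, 3 of 8 genes were bound. PSMD3, a structural subunit, had a WT fold of 4.99 (−log10 q 29.8) at chr17:39980650-39981200, its summit 76 bp inside the gene. PSMD7 had 3.86 (−log10 q 20.7) at chr16:74296393-74297200, with the summit 50 bp inside. PSMD14, the deubiquitinase that removes ubiquitin chains and pairs with PSMD7 in the lid, had 3.02 (−log10 q 15.5) at chr2:161308361-161308809, with the summit 150 bp inside. The genes of both partners of that pair were thus bound, while PSMD6, PSMD8, PSMD11, PSMD12 and PSMD13 were not.

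Core genes were bound at low fold. Of the alpha-ring genes 3 of 8 had a WT summit: PSMA5 with a fold of 4.31 (−log10 q 27.9, chr1:109425955-109427076), PSMA3 with 3.63 (−log10 q 17.3, chr14:58244145-58245324) and PSMA7 with 3.40 (−log10 q 19.4, chr20:62142788-62143829). The PSMA7 summit was 230 bp from its end and 605 bp from that of SS18L1. Of the beta-ring genes 2 of 11 had one. PSMB5, which encodes the chymotrypsin-like catalytic subunit, had a WT fold of 3.49 (−log10 q 10.4, chr14:23034461-23035124), and PSMB2, a structural subunit, had 2.98 (−log10 q 10.3, chr1:35641310-35641935).

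The other constitutive catalytic genes, PSMB6 and PSMB7, lay 6135 and 417408 bp from a WT summit. The inducible or tissue-restricted catalytic genes were unbound as well, namely PSMB8 and PSMB9, immunoproteasome genes that lie close together on chromosome 6, the immunoproteasome gene PSMB10 and the thymus gene PSMB11. So was PSMA8, the testis gene of an alpha-ring subunit that stands in for PSMA7. All 5 bound core genes therefore came from the 14 constitutive ones (35.7%, 16.3 to 61.2%), against 0 of 5 restricted or inducible genes (interval up to 43.4%). This contrast depended on the threshold. PSMB10 had a WT summit inside its own span, 1136 bp from a gene end, with a fold of 5.17 (−log10 q 25.9). That fold was above those of all bound core genes, the highest being 4.31 at PSMA5. PSMB10 counted as bound with a window of 5 kb or with any base of the peak within 1 kb.

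Among the assembly genes the 1 kb rule found PSMD9 and PSMG3. PSMD9, a chaperone of the cap's base, had a WT fold of 5.39 (−log10 q 38.2) at chr12:121888242-121889144. Its summit lay 128 bp upstream of the PSMD9 start and within the CACGTG shown above (bases −131 to −126, centre 0.5 bp from the summit), but only 51 bp from the end of HPD, a tyrosine breakdown gene. The peak cannot be assigned to either gene from position alone. PSMG3, a chaperone of the core's alpha ring, had a fold of 3.19 (−log10 q 13.4) at chr7:1569678-1570363. PSMD5, PSMD10 and PSMG1 had no WT summit within 100 kb.

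The rule by gene ends missed starts that lie inside a span. PSMG4, the partner of PSMG3 in a chaperone pair, has its annotated start at position 3258947 of chromosome 6, inside its span of chr6:3254404-3268049. The 3A peak there (chr6:3258904-3259448) had a fold of 3.97 and a −log10 q of 12.7, 216th of 845, with its summit 208 bp inside the start. The WT peak (chr6:3258792-3260163) had a fold of 9.40 and a −log10 q of 72.7, 416th of 4749, with its summit 195 bp inside. By WT fold this peak was second to PSME3 alone, and the nearest end of another protein-coding gene was 9831 bp from its summit. PSMG2, the partner of PSMG1, also had a WT peak 327 bp upstream of its second annotated start, with a fold of 2.71 and 62 bp from the end of CEP76. Both genes were singled out after their values were seen.

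Counted by annotated starts alone, 3A had a summit at 2 of the 44 genes with a start window, PSME3 and PSMG4, against 3.87% of all such genes. 7A had a summit at 0 of the 44, against 0.126%. WT had a summit at 13 of the 44, against 18.8%. With starts, the bound assembly genes were PSMD9, PSMG2 and PSMG4, since PSMG3 had no start window.

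**Figure D2:**
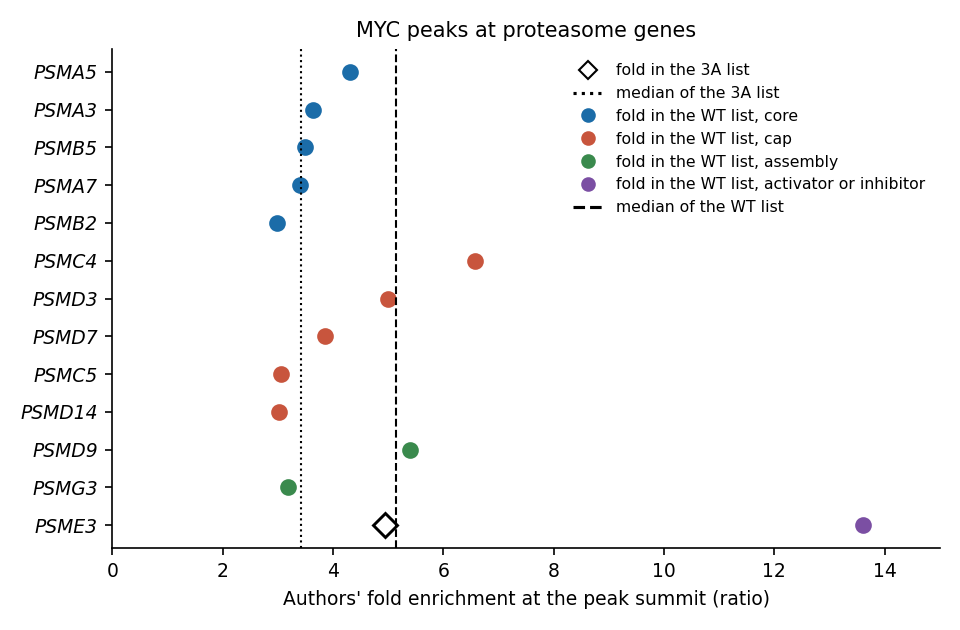
The authors' fold enrichment (x axis, ratio) at the peak summit of the 13 proteasome genes bound under the 1 kb rule (y axis). The open diamond is the fold in the 3A list, present for PSME3 alone (4.94), and coloured circles are folds in the WT list by class. The dotted line is the median of all 3A peaks (3.41) and the dashed line that of all WT peaks (5.14), below which 10 of the 13 circles lie.

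Most of the WT peaks at proteasome genes were weak within their list. Their folds ran from 2.98 at PSMB2 to 13.6 at PSME3 with a median of 3.63, and 10 of the 13 were below the median of all WT peaks, 5.14. The median gene ranked at the 12.6th percentile of the WT list by fold, against 49.7 for all WT-bound protein-coding genes. Ranked by −log10 q the proteasome genes stood at a median percentile of 35.3, against 54.5 for all WT-bound genes. The peaks were not narrow, with a median width of 903 bp against 790 bp for the whole list. PSME3, PSMC4 and PSMD9, at percentiles of 98.0, 73.5 and 55.3, were the genes above the list median.

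Of the 13 WT-bound proteasome genes, 3A also bound 1 (7.69%, 1.37 to 33.3%), against 18.8% of all WT-bound protein-coding genes. The share kept by 3A rises with WT fold in the whole list, so the genes were read in 2 ranges. Below the median WT fold 3A bound 0 of the 10 proteasome genes, against 10.8% of all WT-bound genes in that range. At or above it 3A bound 1 of the 3, against 26.9% of all. Neither count can be told from its background at these numbers. The nearest 3A summits to the other 12 genes were 39706 to 1595722 bp away, the closest being at PSMA7 and the farthest at PSMD14, so none was a near miss of the 1 kb rule.

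The bound genes held their peaks close to the start. The distance from gene end to WT summit was 26 to 394 bp with a median of 142 bp, against a median of 195.5 bp for all WT-bound genes. All 13 therefore lay within 500 bp, as did 82.7% of all WT-bound genes. In the 11 genes with a start window, each WT summit was within 1 kb of an annotated start, against 94.2% of 2805 WT-bound genes with a window. The genes just inside the threshold were PSMC5, PSMB5 and PSMA3 (394, 373 and 372 bp) and those just outside were PSMB10, PSMG2 and PSMC2 (1136, 1278 and 2753 bp). The WT peaks nearest to PSMB10, PSMG2 and PSMC2 had folds of 5.17, 3.03 and 5.22 (−log10 q 25.9, 11.9 and 36.2).

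**Figure D3:**
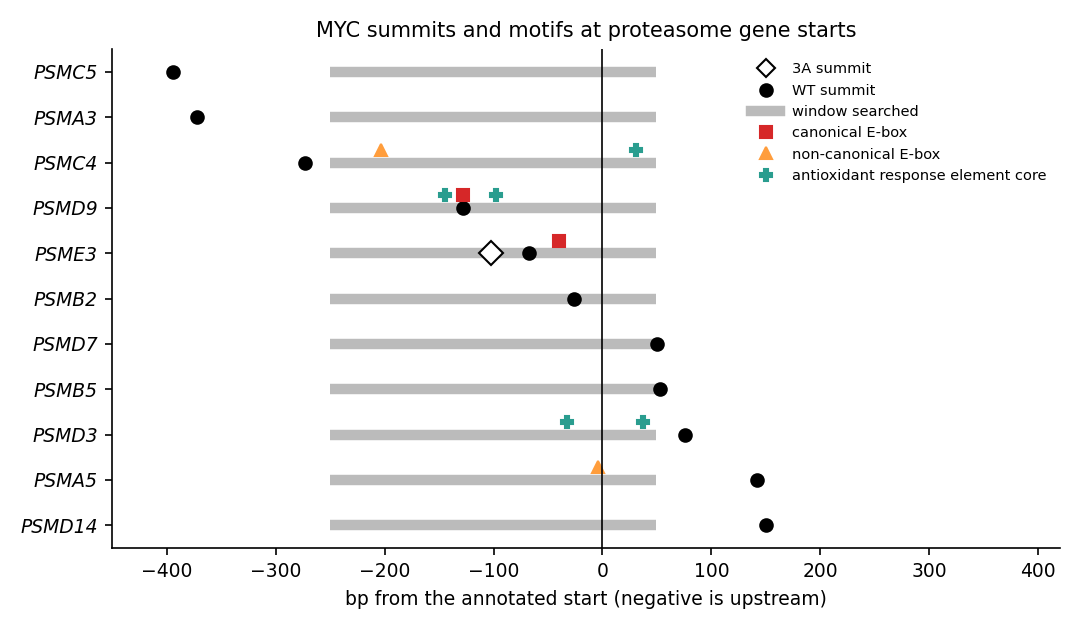
WT summits (circles) and the 3A summit (diamond) at the 11 bound proteasome genes with an annotated start, in bp from the start nearest to the WT summit (x axis). Grey bars are the windows searched at that start, squares canonical E-boxes, triangles non-canonical E-boxes and crosses antioxidant response element cores on either strand. Motifs in the windows of other starts of a gene, such as the response element core of PSMC5, are counted in the text but not drawn. The PSMD9 summit falls on its E-box and the PSME3 summits within 62.5 bp of theirs.

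Motifs were counted in windows of 250 bases before to 50 after each start, on both strands, taking a gene as positive if any of its windows held the motif. The canonical E-box (CACGTG) was in 4 of 44 proteasome genes (9.09%), against 10.9% of all 15842 genes with a window. It was in PSMD9 and PSME3 among the 11 WT-bound genes (18.2%) and in PSMB3 and PSME3IP1 among the 33 unbound ones (6.06%), and over all WT-bound genes it was in 19.2%. The non-canonical E-box (CACGCG) was in 5 of 44 (11.4%), against 18.1% of all genes, and the bound genes with it were PSMA5 and PSMC4. Over all WT-bound genes CACGCG was in 30.8%, against 18.2% (2 of 11) in the bound proteasome genes. Either motif was in 4 of the 11 bound proteasome genes (36.4%), against 43.7% of all WT-bound genes.

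The antioxidant response element core (TGACNNNGC) was in 15 of the 44 (34.1%), against 17.9% of all genes. It was in 4 of the 11 WT-bound genes and 11 of the 33 unbound ones. The 33 include PSMG2 and PSMG4, which had a WT summit near a start and not near a gene end. Split by a WT summit within 1 kb of a start, the core was in 5 of 13 genes with one (38.5%) and 10 of 31 without (32.3%), against 20.8% of all genes with one. The CCAAT box, none of whose matches overlapped a match of the other motifs, was in 22 of 44, against 42.1% of all genes. It was in 9 of the 11 WT-bound genes and 13 of the 33 unbound ones, whereas over all genes it was in 38.2% of those bound by WT. Split by starts it was in 9 of 13 (69.2%) and 13 of 31 (41.9%), against 40.1% of all genes with a WT summit at a start. These are counts of letters in a short window with no test, and a window without a match says nothing of sequence outside it.

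The unbound proteasome genes lay at widely differing distances from WT summits. The nearest WT summit to the 37 unbound genes was 1136 to 4521383 bp from a gene end, with a median of 91631 bp, against 126194 bp for the 16620 unbound protein-coding genes on chromosomes with a WT peak. It was within 5 kb at 5 of the 37 (13.5%), against 5.3% of all unbound genes, and beyond 100 kb at 17 (45.9%), against 55.2%. At 24 of the 37 (64.9%) the nearest WT summit was within 1 kb of an end of another protein-coding gene, against 63.9% of all unbound genes, so that count is at its background.

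**Figure D4:**
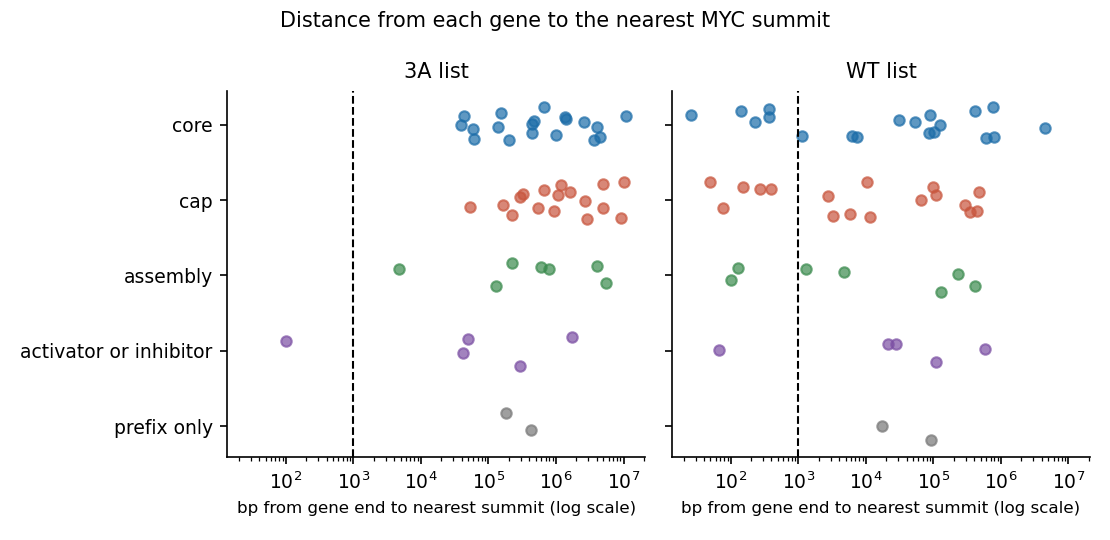
Distance from the end of each of the 50 proteasome genes to the nearest MYC summit (x axis, bp, log scale) in the 3A list (left) and the WT list (right), by class (y axis). Each point is a gene and the dashed line marks 1 kb. In the 3A list PSME3 alone lies left of the line, and in the WT list 13 genes do.

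Other machines of many subunits were set beside the proteasome. For the cytosolic ribosomal protein genes the 3A list had a summit at 43 of 78 (55.1%, 44.1 to 65.7%) and the WT list at 66 (84.6%, 75.0 to 91.0%). For the genes of TRiC, the chaperonin that folds actin and tubulin, the 3A list had a summit at 5 of 8 (62.5%, 30.6 to 86.3%) and the WT list at 7 (87.5%, 52.9 to 97.8%). The intervals of both gene lists lay above those of the proteasome genes in the 3A and WT lists, and above the 3.50% and 16.7% of all protein-coding genes. The 7A list had a summit at 5 of 78 ribosomal protein genes (6.41%, 2.77 to 14.1%) and 1 of 8 TRiC genes (12.5%, 2.24 to 47.1%). These were set against 0.125% of all protein-coding genes, and both 7A intervals overlapped that of the proteasome genes (up to 7.13%). The median percentile by WT fold was 12.6 for the bound proteasome genes, against 76.0 for the bound ribosomal protein genes and 86.2 for the bound TRiC genes. No test was made of these differences, and both gene lists were chosen with earlier results of these data known. The shares of all protein-coding genes also count silent genes and genes without CpG-rich starts.

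**Figure D5:**
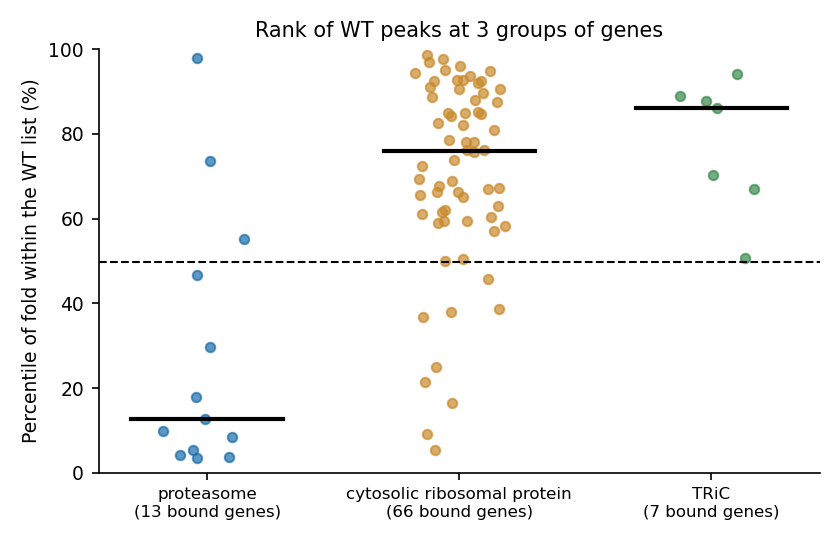
Percentile of each bound gene's peak within the WT list by fold (y axis, %), for proteasome, cytosolic ribosomal protein and TRiC genes (x axis). Points are genes, bars are medians (12.6, 76.0 and 86.2) and the dashed line is the median of all WT-bound protein-coding genes (49.7).

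Genes of the same route that lack a PSM symbol were counted from a list of 30, of which RPS27A is also a ribosomal protein gene. 3A bound 4 (13.3%, 5.31 to 29.7%), 7A bound 0 and WT bound 16 (53.3%, 36.1 to 69.8%). The shares of all protein-coding genes were 3.50%, 0.125% and 16.7%, so the 3A and WT intervals lay above them. That background also counts silent genes and genes without CpG-rich starts, and no share by CpG-rich starts was taken for this list. The list was chosen with earlier results of these data known, and the difference was not tested. The median WT fold was 4.91, against 5.13 for all WT-bound genes. Their 3A and WT shares were above those of the PSM genes, at 2.0% and 26.0%, with overlapping intervals. Of 5 further genes for subunits, assembly or nuclear import, WT bound PAAF1 (fold 5.45) and AKIRIN2 (4.04). PAAF1 is a cap assembly chaperone, and AKIRIN2, neither subunit nor assembly factor, brings proteasomes into the nucleus. The subunit genes SEM1 and ADRM1 and the core chaperone gene POMP were unbound.

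Regulators and delivery factors held most of the rest. NFE2L1, which raises proteasome gene transcription when proteasomes are inhibited, had a WT fold of 5.31, and DDI2, the protease that activates it, had 6.11. NFE2L2 had a WT fold of 3.09. STAT3, a transcription factor, had a fold of 3.49 in the 3A list and 7.41 in the WT list. WT thus bound 4 of the 6 regulator genes (66.7%, 30.0 to 90.3%), against 16.7% of all protein-coding genes. The other regulator genes, NGLY1 and FOXO4, lay 1755328 and 27341 bp from the nearest WT summit. Of the 12 ubiquitin and delivery genes, 3A bound 3 (25.0%, 8.89 to 53.2%) and WT bound 7 (58.3%, 32.0 to 80.7%). The shares of all protein-coding genes were 3.50% and 16.7%. UBB, UBQLN2, UFD1 and VCP were bound by neither. UBQLN4, a shuttle for ubiquitinated proteins, had a fold of 4.04 in the 3A list and 9.80 in the WT list, and RAD23B, another shuttle, had 2.91 and 6.80. NPLOC4, a cofactor of VCP, had a 3A summit within 1 kb (fold 2.93) and no WT summit within 1 kb. Among the 7 associated enzymes and adaptors WT bound 3 (42.9%, 15.8 to 75.0%), ECPAS (6.10), TXNL1 (4.51) and USP14 (3.62).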

How the data were processed

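Per the labels' protocols, chromatin was crosslinked in formaldehyde (1%, 10 min) and each library took 5 ng of DNA through 9 cycles of PCR. Tools listed in the submitters' processing notes, with neither versions nor roles, are cutadapt, Bowtie2, SAMtools, Picard and MACS2. The builds listed there are hg19, mm10 and hg38. Which controls were used, how replicates were pooled and whether spike-in scaling was done was not given in the sources used here.

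The authors deposited narrowPeak files. The authors' fold enrichment (a ratio) and −log10 q were used for each peak, and the score column, also deposited, was left out. Weak peaks enter each list, with lowest −log10 q of 1.51 (3A), 3.81 (7A) and 1.32 (WT).

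Positions count from 1. The files were read as hg38, since 60.1% of WT summits fell within 1 kb of a gene end of that build and 5.96% did after moving them by 100 kb. Summits were set against protein-coding spans of GRCh38.p14, a table without strand. Strand and starts came from the promoter table, which matched 44 of the 50 genes, so the other 6 entered no start or motif count. A gene with several peaks within 1 kb took the highest fold. The members, lists, motifs and alternatives were chosen with earlier results of these data known. The rule for full values took the 10 genes with the highest WT fold, every gene bound by a mutant, and the 3 on each side of the threshold. PSMB2 and PSMD14, the unbound genes with a distance of their own, PSMG4, and the single genes named from the comparison lists fall outside it and were chosen after their values were seen. A few genes of the comparison lists are not reported here. No test was run, since each protein has 1 list. The matching of summits to genes was tested on simulated summits placed outside the lower end of a gene's span. That check required those within 1 kb to be found, and it could not reveal false matches. Python 3.11.15, numpy 2.4.6, pandas 2.3.3, scipy 1.17.1 and matplotlib 3.10.9 were used.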

Additional observations from a re-analysis of the deposited data

How the results depend on the processing

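The count of proteasome genes bound by WT (12 to 18 under all alternatives tried) stayed within 1.5 times of the reported 13, and 7A bound 0 under all tried. Shares of all protein-coding genes are given above for annotated starts but not for the other changes of window, q-value or matching. A wider window can reach more genes of any kind, so those counts give no standing against background. The alternatives were windows of 500 bp or 5 kb, −log10 q of at least 5 or 10, any base of the peak in place of the summit, annotated starts, each summit given to its nearest gene and, added after seeing the data, leaving out the prefix-only and restricted genes. For 3A the count of 1 was 2 with a window of 5 kb and 2 with starts alone, PSMG4 being added in each. It was also 2 with either ends or starts, a rule added after seeing the data. The WT-bound genes also bound by 3A likewise numbered 2, 2 and 2. That number was 0 when 3A and WT peaks had to overlap by at least 50% of both, as the 3A peak at PSME3 is the shorter. Assembly genes bound by WT numbered 4 with a window of 5 kb (PSMG2 and PSMG4 added) and 1 when a summit counted for its nearest gene only, where PSMD9 gave way to HPD. The median percentile of the WT peaks, 12.6 by fold, was 35.3 by −log10 q and 7.98 among peaks with a −log10 q of at least 10. The percentile of the PSME3 peak in the 3A list, 92.4, was 95.1 and 88.8 under the same changes. No paired analysis was possible because each protein has 1 peak list that carries no replicate number, and for the same reason no replicate could be left out. Without depth per library, a gene absent from the 3A or 7A list cannot be called unbound by that protein, only without a listed peak.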

Other observations

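At 4 unbound proteasome genes the nearest WT summit lay 2753 to 6135 bp away and within 1 kb of another gene's end. At any distance, the nearest WT summit was within 1 kb of another gene's end at 64.9% of unbound proteasome genes. The share was 63.9% for all unbound genes, so such neighbours are at their background. The summit nearest to PSMC2 (2753 bp) was 4 bp from the end of DNAJC2, a ribosome-associated chaperone gene, with a fold of 5.22. The summit nearest to PSMD2 (5826 bp) was 270 bp from EIF4G1, a translation initiation factor gene, with a fold of 9.23. The summit nearest to PSMD11 (3213 bp) was 461 bp from CDK5R1, with a fold of 6.02, and that nearest to PSMB6 (6135 bp) was 560 bp from GLTPD2, with a fold of 5.97. These genes were chosen after their values were seen, and no test was made of the neighbours.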
